A study of Homo sapiens with 4 samples.

Results

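The nuclear genes that encode the subunits of oxidative phosphorylation were taken from the table of gene symbols by name. They comprise the NDUF subunit series of complex I, the SDH genes of complex II, the UQCR genes and CYC1 of complex III, cytochrome c (CYCS), the COX4 to COX8 series of complex IV and the ATP5 genes of complex V. Symbols ending in P and digits, which mark pseudogenes, were left out. This gave 88 genes of 59409 symbols, and the choice used no measured value. NDUFA4 was counted with complex IV, where its protein resides despite its name. Of the 88 genes, 79 reached at least 1 TPM (transcripts per 1000000) in at least 2 libraries and were tested, and 9 did not.

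Polyadenylated RNA was sequenced from 786-O, a line of human clear cell renal carcinoma without functional VHL protein. The comparison asks how transcript levels differ when DEK, a chromatin protein that can act as a histone chaperone, is removed by Cas9 editing. The 2 control libraries are labelled as negative control with wild-type genotype, and their description names Cas9. The 2 knockout libraries, labelled DEK KO, come from cells of a Cas9-expressing clone, made with LentiCas9-Blast virus, that received LentiGuide-Puro virus with guides against DEK and were sorted as single cells. All cells were grown in the same medium with serum. Neither the clone behind a knockout library nor separate cultures within a group are named in the labels, so p-values reflect library-to-library spread alone, which may be technical. Clone and knockout therefore cannot be told apart.

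Oxidative phosphorylation couples electron transport in the inner mitochondrial membrane to ATP synthesis. Complexes I and II pass electrons from NADH and succinate to ubiquinone, complex III passes them to cytochrome c, and complex IV passes them to oxygen. The proton gradient built on the way drives complex V, the ATP synthase. Complex II is encoded in the nucleus alone, whereas the other complexes also hold subunits made from the mitochondrial genome. Clear cell renal carcinoma cells with active hypoxia-inducible factors are known for high glycolysis and low respiration.

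Each library's values sum to 1000000 TPM, so a level is relative to all other transcripts of that library. Depth estimated from the steps between low values was 35.3 to 39.5 per library in units of 1000000 reads. DEK itself stood at 95.02 and 76.26 TPM in the controls and 31.40 and 15.71 TPM in the knockouts (log2 fold change -1.89, SE 0.33, limma adjusted p = 0.030). Of 9 renal markers 8 reached 1 TPM, with a summed level of 9060 to 10200 TPM. CA9, a hypoxia target and clear cell marker, stayed at or below 0.346 TPM. None of the 4 leukocyte, 3 endothelial and 3 fibroblast markers reached 1 TPM in any library, and their part in the results was not tested.

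Promoters of these genes are known for sites of the factors NRF1, GABP (an ETS factor) and YY1, which tie their transcription to mitochondrial biogenesis. The RefSeq promoter windows (GRCh38.p14, 250 bases before to 50 bases after the start) were matched for 70 of the 88 genes. Of these, 30% held the ETS motif CCGGAAG on either strand, against 12.2% of 27305 genes in the table and 22.6% of tested genes with a window. The YY1 motif AAGATGGC was held by 17.1%, against 3.52% and 6.57%, and the NRF1 motif (the run in capitals in the NDUFA8 window below) by 5.71%, against 1.52% and 2.78%. The last letters of the ETS motif, AAG, are the first of the YY1 motif, and the joined form occurs in 0 of the 70 genes. Any of the 3 motifs was present in 48.6% of the matched genes, in 16.0% of all genes and in 29.3% of tested genes with a window. The windows below run from 130 bases before to 30 bases from the start, 5′ to 3′ on the gene's strand, and capitals mark a motif in either orientation. They were chosen with their values known, to show each motif in genes whose transcripts differed to different extents between the groups. ATP5F1C (chr10:7788047-7788206, plus strand) is the only matched gene that passed the test, SDHD (chr11:112086743-112086902, plus) and NDUFA8 (chr9:122159750-122159909, minus) share its NRF1 motif, SDHB (chr1:17054003-17054162, minus) and ATP5PB (chr1:111449334-111449493, plus) hold the YY1 motif, and COX4I1 (chr16:85799565-85799724, plus) holds the ETS motif.
ATP5F1C: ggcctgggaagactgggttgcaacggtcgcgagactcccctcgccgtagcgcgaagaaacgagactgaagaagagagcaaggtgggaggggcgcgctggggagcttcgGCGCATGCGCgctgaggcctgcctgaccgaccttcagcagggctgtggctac
SDHD: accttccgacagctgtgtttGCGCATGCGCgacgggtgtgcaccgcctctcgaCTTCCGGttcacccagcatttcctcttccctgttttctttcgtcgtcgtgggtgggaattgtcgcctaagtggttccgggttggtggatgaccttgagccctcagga
NDUFA8: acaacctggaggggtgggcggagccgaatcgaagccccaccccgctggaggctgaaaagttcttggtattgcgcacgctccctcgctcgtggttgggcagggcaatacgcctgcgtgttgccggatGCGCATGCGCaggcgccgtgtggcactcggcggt
SDHB: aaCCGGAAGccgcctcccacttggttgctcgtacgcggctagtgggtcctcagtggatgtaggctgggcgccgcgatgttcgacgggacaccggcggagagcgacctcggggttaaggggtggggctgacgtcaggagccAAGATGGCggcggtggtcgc
ATP5PB: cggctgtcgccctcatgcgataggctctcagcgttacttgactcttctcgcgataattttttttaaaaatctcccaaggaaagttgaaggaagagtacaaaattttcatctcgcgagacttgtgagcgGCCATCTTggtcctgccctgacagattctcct
COX4I1: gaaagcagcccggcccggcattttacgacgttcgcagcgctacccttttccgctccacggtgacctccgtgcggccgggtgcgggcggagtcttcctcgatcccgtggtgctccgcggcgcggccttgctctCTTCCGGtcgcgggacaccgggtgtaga

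The NRF1 motif begins 22 bases before the start in ATP5F1C and 110 bases before it in SDHD, which also holds an ETS motif. The YY1 motif of SDHB begins at base 11 of the transcript. Tested genes with any of the motifs had a median log2 fold change of -0.12 over 33 genes, and those without had -0.064 over 31 genes. Over all tested genes with a window the same medians were -0.097 and -0.065. A motif match is a description of letters in the window, not a site shown to be bound.

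Transcripts of the oxidative phosphorylation subunits were mostly a little lower in the DEK knockout, and few changes passed the test. Of the 79 tested genes 3 fell and 0 rose (limma, Benjamini-Hochberg adjusted p under 0.05), with 25 at an unadjusted p under 0.05. The 3 genes were SDHC of complex II, NDUFB5 of complex I and ATP5F1C of complex V. Over all 15815 tested genes 8.67% fell and 9.06% rose, so the 3.80% of subunit genes that fell lie below the background. Restricted to genes with a mean of at least 10 TPM, 2.7% of 74 subunit genes and 12.2% of 8575 genes fell. In a bulk sample, fewer cells of a type and less RNA per cell cannot be told apart.

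Direction was less even than in the transcriptome. The log2 fold change was negative for 58 of the 79 genes (73.4%), against 55.6% of all tested genes, and its median was -0.11 against -0.058. Both knockouts lay below both controls for 44 genes (55.7%), where the background is 39.0%. Both lay above both controls for 10 genes (12.7%), where the background is 29.2%, and the other 25 overlapped. With scaling to the median ratio the negative count was 51 of 79 and the median -0.049, beside a median of -0.006 for all tested genes. With the trend in GC content removed they were 49 and -0.067, beside 0.001 for all tested genes. The 55.6% above belongs to the fit without these steps.

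The differences were also small. Of the subunit genes 74.7% differed by less than 1.2-fold on the log2(TPM + 1) scale, compared with 45.8% of all tested genes, and 94.9% by less than 1.5-fold, compared with 77.9%. The median size of the log2 fold change was 0.13 for subunit genes and 0.29 for all. Replicates of subunit genes were closer too than those of all tested genes. The median absolute log2 difference was 0.071 against 0.10 between the controls and 0.10 against 0.19 between the knockouts. The median standard error, which limma draws toward the spread of genes of similar mean expression, was 0.082 against 0.15. Replicate differences of genes at a like level were not compared.

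**Figure D1:**
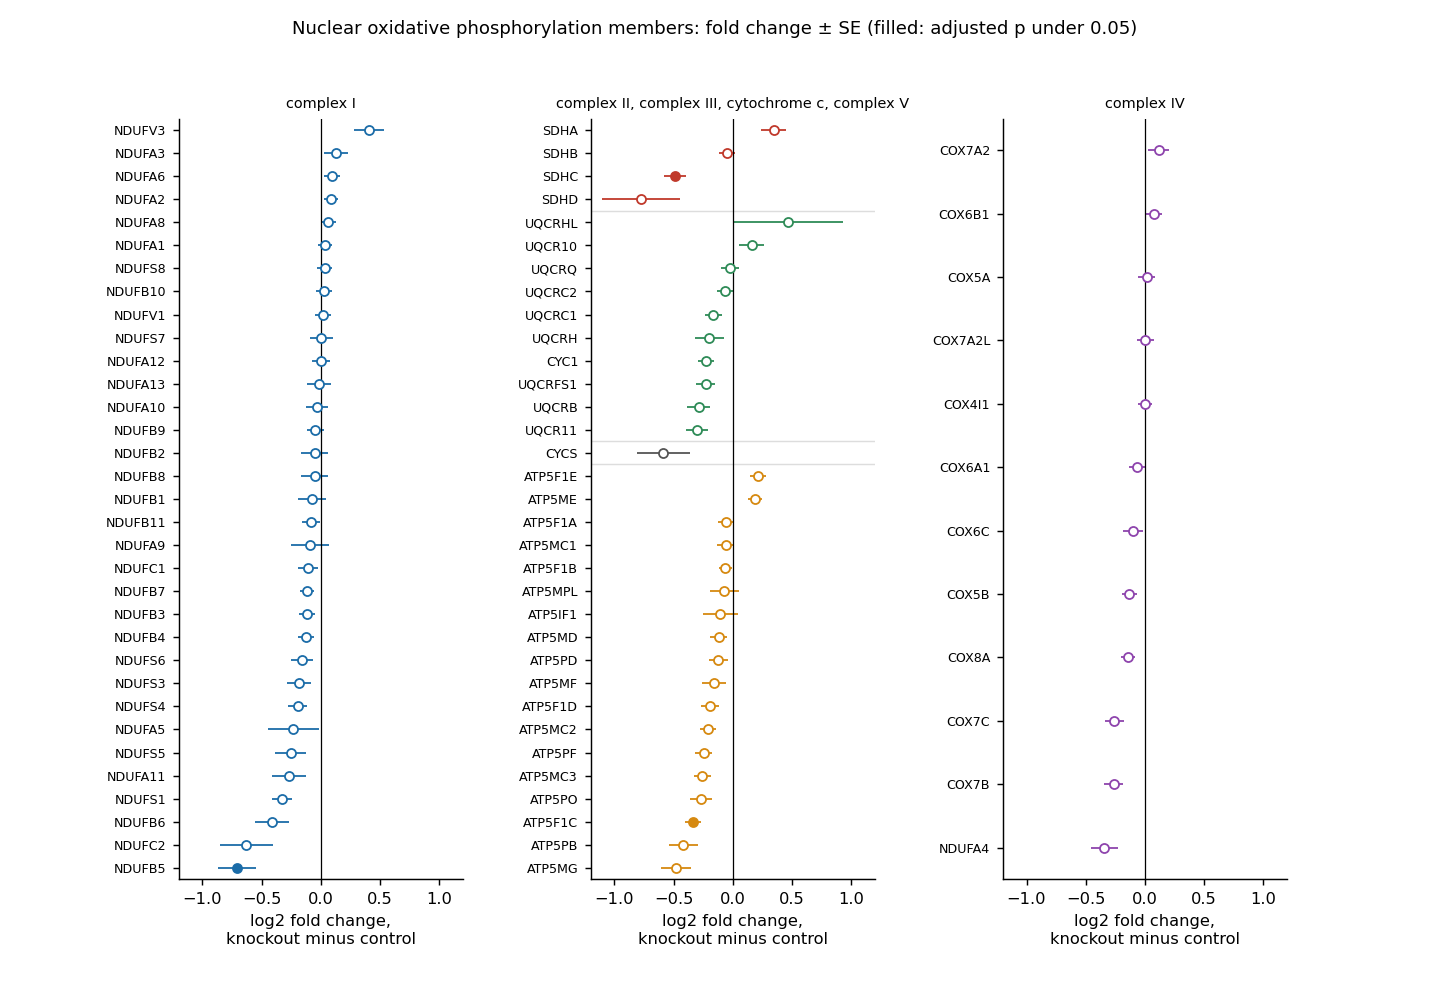
Log2 fold change (knockout minus control, log2(TPM + 1) scale) of 78 of the 79 tested subunit genes, grouped by complex, with bars of ± 1 standard error from limma and filled points for an adjusted p under 0.05. Most points lie left of 0 by a small distance, and the filled points are SDHC, NDUFB5 and ATP5F1C.

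The calls depended on single libraries. Without control 1 or without control 2, no subunit gene was called by limma (3 and 7 at an unadjusted p under 0.05). In those fits 1 and 7 of all tested genes fell. Without knockout 1, 22 subunit genes fell and 2 rose, and without knockout 2, 8 fell and 1 rose, beside 20.7% and 11.2% of all genes that fell. With any library left out 58 to 60 of 79 subunit genes were negative. This count could not fall below 44, as genes with both knockouts below both controls stay negative whichever library is left out. It therefore says little about dependence on a single library.

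Summed over the subunits of each complex, transcript levels were lower in both knockouts than in both controls for every complex. Complex II summed to 437.7 and 432.4 TPM in the controls and to 372.5 and 343.4 TPM in the knockouts, which is 17.7% lower. Complex III summed to 1968 and 1963 TPM and to 1837 and 1734 TPM, 9.18% lower. Complex V stood at 4977 and 4914 TPM in the controls and 4565 and 4568 TPM in the knockouts, 7.66% lower. Complex I stood at 4448 and 4382 TPM in the controls and 4313 and 4019 TPM in the knockouts, 5.64% lower. Complex IV stood at 2753 and 2693 TPM in the controls and 2608 and 2571 TPM in the knockouts, 4.88% lower. CYCS was uneven in the controls, at 64.93 and 41.67 TPM, and was at 32.14 and 36.51 TPM in the knockouts. A sum weights abundant genes most. SDHC had means of 219.8 TPM in controls and 156.6 TPM in knockouts. UQCRH had 808.7 and 709.3 TPM, and NDUFS5 had 648.1 and 546.7 TPM. These genes lie on chromosome 1. The log2 fold change was positive for 11 tested genes of complex I, 1 of complex II and 2 of complex III, so a lower sum is not a fall of every subunit. The sums were not tested, and the smallest p that exact permutation of 2 against 2 libraries allows is 0.33. After scaling to the median ratio the differences of complexes I, III, IV and V shrank to -1.56, -5.26, -0.77 and -3.68%, whereas that of complex II was -14.2%.

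**Figure D2:**
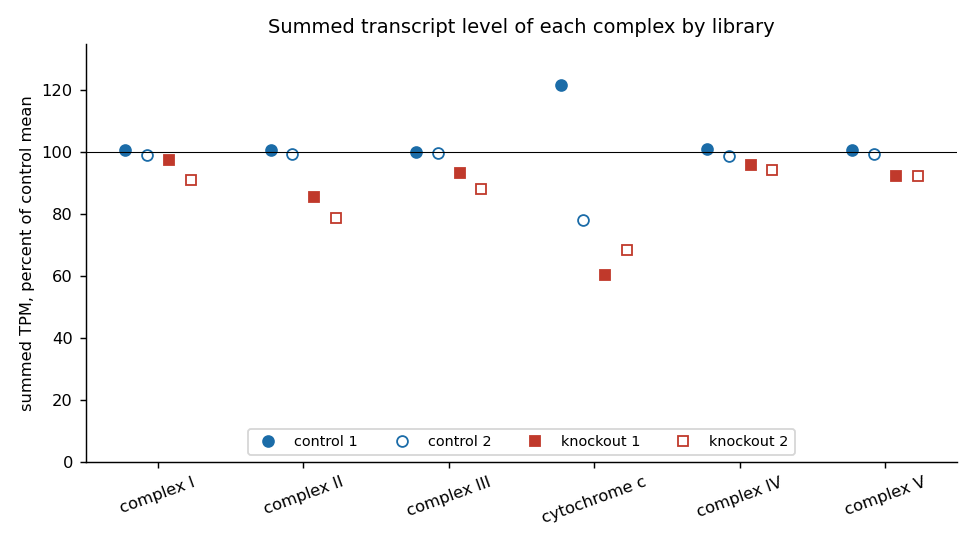
Summed TPM of the subunits of each complex in each library, as a percent of the mean of the 2 controls (controls as circles, knockouts as squares). Both knockouts lie below both controls in every complex, complex II is the lowest of the multisubunit complexes, and the controls of cytochrome c are far apart.

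Complex I takes electrons from NADH. Its core, conserved from bacteria, holds the flavin, the iron-sulfur clusters and the quinone site, and a larger number of accessory subunits surrounds it. Among 34 tested complex I genes 1 fell and 0 rose. The log2 fold changes ran from -0.71 to 0.41 around a median of -0.080, with 23 negative. The accessory subunit gene NDUFB5, of the membrane arm, stood at 12.41 and 9.798 TPM in the controls and 6.677 and 6.058 TPM in the knockouts. Both knockout values lie below both controls. NDUFB5 fell from a mean of 11.1 ± 1.85 TPM to 6.37 ± 0.437 TPM (SD, n = 2 each; log2 fold change -0.71, SE 0.16, limma adjusted p = 0.046). NDUFB5 (ENSG00000136521) lies on chromosome 3 from 179604690 to 179627647 (GRCh38, plus strand), and no annotated exon of another gene overlaps it. It lost the call without control 1 (adjusted p = 0.27), without control 2 (0.14) and without knockout 2 (0.070). The call was also lost with median ratio scaling (adjusted p = 0.051), without the filter (0.11) and with no trend in the variance prior (0.063).

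The most abundant complex I transcripts did not pass the test. NDUFS5, an accessory subunit on the intermembrane side, stood at 648.8 and 647.4 TPM in the controls and 614.3 and 479.1 TPM in the knockouts. NDUFB7 was at 446.7 and 450.0 TPM and at 422.4 and 406.3 TPM, and NDUFS6, which binds zinc, at 389.6 and 373.7 TPM and at 368.9 and 315.1 TPM. In all 3 genes both knockouts were below both controls, and in NDUFS5 knockout 2 stood well below knockout 1.

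Among the core subunits, NDUFS1, which carries iron-sulfur clusters of the peripheral arm, stood at 35.65 and 37.40 TPM in the controls and 29.61 and 28.32 TPM in the knockouts (log2 fold change -0.33, limma adjusted p = 0.062). NDUFV1, the flavin subunit that accepts electrons from NADH, did not separate the groups, with 127.8 and 121.4 TPM in controls and 123.3 and 129.3 TPM in knockouts. Of 6 tested core genes 3 were negative, but all 6 were with the GC trend removed. NDUFV3, an accessory subunit next to the flavin, pointed the other way. It stood at 14.63 and 12.39 TPM in the controls and 17.50 and 18.92 TPM in the knockouts (log2 fold change 0.41, adjusted p = 0.085).

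The NDUFB series lies in the membrane arm. Of 11 NDUFB genes 10 were negative, with a median of -0.085. In 7 of them (63.6%, against 39.0% of all tested genes) both knockouts lay below both controls. The negative count was 7 (median -0.024) with median ratio scaling and 6 (median -0.075) with the GC trend removed. Of 11 tested NDUFA genes 5 were negative, with a median of 0.003. In 5 genes (45.5%, against 29.2% of all tested genes) both knockouts lay above both controls. In 2 genes (18.2%, against 39.0%) both lay below. The difference between the series was not tested, and the NDUFA median was -0.027 after rescaling without the mitochondrial genome. NDUFA2 was at 200.3 and 202.2 TPM in controls and at 211.6 and 216.6 TPM in knockouts, and NDUFA8 at 180.6 and 175.7 TPM and at 182.0 and 189.9 TPM, differences of under 1.2-fold. NDUFB6 was at 71.81 and 55.43 TPM in controls and 49.68 and 44.73 TPM in knockouts (log2 fold change -0.41, adjusted p = 0.11). NDUFC2 was at 18.46 and 12.79 TPM and at 11 and 8.337 TPM (-0.63, adjusted p = 0.11), and in both genes control 1 was far above control 2.

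The subunits encoded by the complex I genes taken here are present in equal number in the enzyme. Yet among the 34 tested genes the transcript levels ranged 185-fold, from 3.24 TPM for NDUFA9 to 597 TPM for NDUFS5 as means over the 4 libraries. The 2 genes that were not tested were lower. NDUFV2, a core subunit with an iron-sulfur cluster, was listed at 0.601 and 0.527 TPM in the controls and 0.476 and 0.371 TPM in the knockouts, below the limit of 1 TPM. NDUFA7 was listed at up to 0.496 TPM and at 0 in 2 libraries. NDUFA9, which lies next to the quinone site, was the tested gene nearest to that limit, at 3.136 and 3.620 TPM and at 3.120 and 3.067 TPM.

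These low levels coincide with annotation that shares coding sequence between genes. In GENCODE release 29, 7 complex I genes share at least 30% of their coding bases with another gene on the same strand, a threshold set after the values were seen. They are NDUFB8 (85.2%), NDUFV2 (84.7%), NDUFA7 (78.3%), NDUFC2 (76.9%), NDUFA9 (67.9%), NDUFA13 (55.2%) and NDUFA11 (36.9%). Their mean levels were 0.165 to 29.6 TPM with a median of 6.5 TPM. The other 29 complex I genes were at 8.74 to 597 TPM with a median of 105 TPM. The overlapping genes AP005263.1 (at NDUFV2), AL133352.1 (NDUFB8), NDUFC2-KCTD14 (NDUFC2) and AC024592.3 (NDUFA11) were listed at 0 in all 4 libraries. AC011448.1, which overlaps NDUFA13, was at 1.57 to 2.25 TPM. Outside complex I, 7 tested genes above the same threshold had a median of 71.7 TPM and 38 below it had 163 TPM, and COX8A, with 55.1% shared, was at 408 TPM. How the authors' counting treated reads in shared exons is not given in the sources used here, and its part in these levels was not tested.

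**Figure D3:**
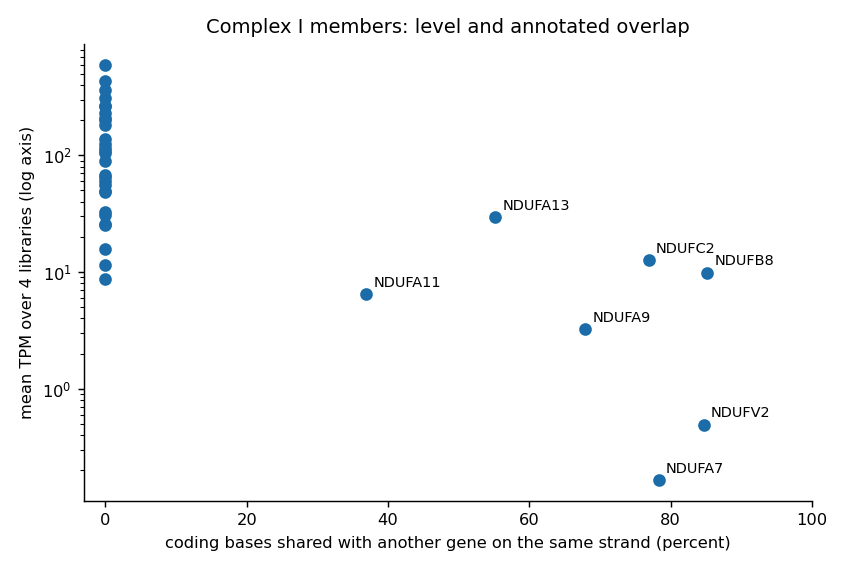
Mean TPM over the 4 libraries (log axis) of the 36 complex I genes against the percent of coding bases shared with another gene on the same strand in GENCODE release 29. The 7 labelled genes with shared bases lie at or below 29.6 TPM, and the other 29 reach 597 TPM.

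Complex II, succinate dehydrogenase, is also an enzyme of the citric acid cycle, and its 4 subunits did not move together. SDHC, a membrane anchor that helps to hold the heme and the quinone site, stood at 214.0 and 225.6 TPM in the controls and 167.3 and 146.0 TPM in the knockouts. Both knockouts lie well below both controls. SDHC fell 1.40-fold, from a mean of 219.8 ± 8.20 TPM to 156.6 ± 15.0 TPM (SD, n = 2 each; log2 fold change -0.49, SE 0.089, limma adjusted p = 0.032). SDHC (ENSG00000143252) lies on chromosome 1 from 161314257 to 161375340 on the plus strand. It kept the call without knockout 1 (adjusted p = 0.0038) and without knockout 2 (0.018) and lost it without control 1 (0.17) or control 2 (0.18). It kept the call with median ratio scaling (adjusted p = 0.049) and lost it without the filter (0.090) and with no trend in the variance prior (0.074).

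The other anchor gene, SDHD, stood at 40.75 and 20.19 TPM in the controls and 16.35 and 16.39 TPM in the knockouts, so control 1 alone was high (log2 fold change -0.78, SE 0.33, adjusted p = 0.16). SDHD shares 47.7% of its coding bases with another annotated gene on its strand. SDHB, the iron-sulfur subunit, overlapped between groups, at 159.6 and 166.1 TPM in controls and 161.0 and 153.0 TPM in knockouts. SDHA, the flavoprotein that oxidizes succinate, pointed up, from 23.28 and 20.49 TPM to 27.95 and 28.04 TPM (log2 fold change 0.34, SE 0.10, adjusted p = 0.080). Both its knockout values were above both controls, and with quantile normalization it passed the test.

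Complex III, the cytochrome bc1 complex, had 10 tested genes, and 0 were called by limma in either direction. Its log2 fold changes ran from -0.30 to 0.47 with a median of -0.18. Both knockouts lay below both controls for 6 of the 10 genes, against 39.0% of all tested genes. Both lay above both controls for 0 of them, against 29.2%. UQCRH, the acidic hinge subunit at the cytochrome c side, stood at 802.3 and 815.0 TPM in the controls and 791.5 and 627.1 TPM in the knockouts, so knockout 2 was low. CYC1, cytochrome c1, was at 293.0 and 277.2 TPM and at 234.8 and 251.8 TPM (log2 fold change -0.23, adjusted p = 0.085). UQCRC1, a core protein, was at 236.0 and 225.3 TPM and at 197.1 and 213.8 TPM. The Rieske iron-sulfur protein gene UQCRFS1 was at 73.96 and 77.09 TPM in controls and at 61.50 and 67.08 TPM in knockouts (log2 fold change -0.23, adjusted p = 0.11). UQCRB and UQCR11, small subunits at the edge of the complex, had log2 fold changes of -0.29 (adjusted p = 0.10) and -0.30 (adjusted p = 0.080). The sign of UQCRB changed with the GC trend removed. UQCR11 shares 100% of its coding bases with another annotated gene on its strand. In CYC1, UQCRC1 and UQCRFS1 the groups did not overlap, although each difference was under 1.2-fold. With the GC trend removed, CYC1 and UQCRC1 passed the test as lower. UQCRHL, a gene copy of UQCRH, stood at 7.118 and 8.001 TPM in the controls and 18.14 and 6.295 TPM in the knockouts, so knockout 1 alone was high. Without knockout 1 its log2 fold change turned negative. Reads of such near-identical copies can be misassigned between them.

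CYCS encodes cytochrome c, the mobile electron carrier that also triggers apoptosis when it leaves mitochondria. Its log2 fold change was -0.59 (SE 0.22, limma adjusted p = 0.13), with both knockouts below both controls. The controls themselves differed from each other by more than the lower control differed from either knockout.

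Complex IV had 12 tested genes, of which 0 were called by limma, and its 3 most abundant transcripts were COX5B, COX4I1 and COX8A. COX5B, a zinc-binding subunit, was at 495.9 and 481.0 TPM in controls and at 458.4 and 433.4 TPM in knockouts. COX4I1, which binds regulatory nucleotides, was at 469.8 and 446.8 TPM and at 462.2 and 454.6 TPM, a log2 fold change of 0.001 with a standard error of 0.060. COX8A was at 436.8 and 421.0 TPM and at 393.5 and 381.5 TPM. The log2 fold changes of the complex ran from -0.34 to 0.12. Their median was -0.082, and it was 0.025 with the GC trend removed, so its sign depended on that step.

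Several small subunits of complex IV had separate groups. NDUFA4 stood at 173.6 and 170.6 TPM in the controls and 122.5 and 150.0 TPM in the knockouts (log2 fold change -0.34, adjusted p = 0.095). COX7B was at 63.68 and 62.77 TPM and at 54.68 and 50.38 TPM (-0.26, adjusted p = 0.082). COX7C was at 136.9 and 127.0 TPM and at 115.3 and 105.2 TPM (-0.26, adjusted p = 0.092), but its sign changed with the GC trend removed. The controls of NDUFA4 and COX7B were nearly equal, and the knockouts were lower by 20.8% and 16.9%. COX7A2L, which takes part in joining complexes III and IV, did not separate the groups, with 69.08 and 70.39 TPM in controls and 67.96 and 71.84 TPM in knockouts.

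Complex IV is known for paired isoforms, some of them restricted to muscle, lung or testis. In these cells the other form was listed at or near 0 for all 6 pairs. COX4I2, the lung form induced by hypoxia in other cells, was listed at 0 in both controls and in knockout 1 and at 0.143 TPM in knockout 2, where it made up 0.0315% of both forms. COX6A2 and COX7B2, known from muscle and testis, were listed at 0 in all 4 libraries. At the estimated depths 3 reads would correspond to 0.528 to 0.598 TPM for COX6A2 and to 0.354 to 0.401 TPM for COX7B2, which bounds counting error only. COX7A1, COX6B2 and COX8C reached at most 0.233, 0.138 and 0.352 TPM. NDUFA4L2, the hypoxia-linked relative of NDUFA4 that is high in many clear cell renal tumors, was likewise at 0 in 3 libraries and at 0.163 TPM in knockout 1. Values of 0 in this table need not mean absence, since SLC25A6, the gene of a widely expressed adenine nucleotide carrier, was also listed at 0 in all 4 libraries. COX6B2 shares 100% of its coding bases with another annotated gene on its strand, and the part of counting in these values was not tested.

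Complex V had 18 tested genes, of which 1 fell, 0 rose and 16 were negative (88.9%). The log2 fold changes ran from -0.48 to 0.21 with a median of -0.14. ATP5F1C, which encodes the gamma subunit of the rotating central stalk, stood at 423.6 and 458.4 TPM in the controls and 355.0 and 342.0 TPM in the knockouts. Both knockouts lie below both controls. ATP5F1C fell from a mean of 441.0 ± 24.6 TPM to 348.5 ± 9.17 TPM (SD, n = 2 each), 21.0% lower (log2 fold change -0.34, SE 0.068, limma adjusted p = 0.039). The gene (ENSG00000165629) lies on chromosome 10 from 7788129 to 7807815 on the plus strand and overlaps no other annotated exon. It kept the call without knockout 1 (adjusted p = 0.016) and without knockout 2 (0.039) and lost it without control 1 (0.19) or control 2 (0.26). The call was also lost with median ratio scaling (adjusted p = 0.074), with the replicate block (0.058), without the filter (0.099) and with no trend in the variance prior (0.10).

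The catalytic subunits differed little. ATP5F1B, the beta subunit and the most abundant transcript of the whole group, was at 1074 and 1098 TPM in controls and at 1043 and 1036 TPM in knockouts (log2 fold change -0.063, adjusted p = 0.44). ATP5F1A, the alpha subunit, was at 172.5 and 171.5 TPM and at 159.4 and 170.4 TPM. ATP5F1D, the delta subunit, was at 335.7 and 316.3 TPM and at 273.1 and 296.8 TPM (-0.19, adjusted p = 0.13). ATP5F1E, the epsilon subunit of the same stalk, pointed up, from 79.17 and 79.91 TPM to 90.42 and 93.75 TPM (log2 fold change 0.21, adjusted p = 0.094). With the GC trend removed ATP5F1D was called lower and ATP5F1E higher.

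All 4 genes of the peripheral stalk, which holds the catalytic head in place, were negative, with a median of -0.26 that stayed between -0.29 and -0.20 under the scaling alternatives and GC removal. ATP5PB was at 157.0 and 164.9 TPM in controls and at 134.1 and 107.5 TPM in knockouts (log2 fold change -0.42, adjusted p = 0.074). ATP5PF was at 105.2 and 107.1 TPM and at 86.59 and 92.40 TPM (-0.25, adjusted p = 0.076). ATP5PD, at 550.0 and 518.4 TPM and at 520.9 and 462.2 TPM, was the one whose groups overlapped.

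The 3 genes of the c ring encode the same mature protein behind different targeting sequences. ATP5MC3 was at 255.2 and 243.5 TPM in controls and at 215.9 and 201.2 TPM in knockouts (log2 fold change -0.26, adjusted p = 0.066). ATP5MC2 was at 184.3 and 173.6 TPM and at 157.4 and 151.6 TPM (-0.21, adjusted p = 0.093). ATP5MC1, the most abundant of the 3, overlapped between groups, at 338.1 and 337.0 TPM and at 309.9 and 337.1 TPM. Their summed level was 777.5 and 754.1 TPM in the controls and 683.1 and 689.9 TPM in the knockouts, 10.4% lower. The median log2 fold change of the 3 was -0.21, and -0.044 with the GC trend removed.

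Subunits of the membrane base went both ways. ATP5MG was at 28.71 and 23.80 TPM in controls and at 19.20 and 17.70 TPM in knockouts (log2 fold change -0.48, adjusted p = 0.062). ATP5MG shares 56.5% of its coding bases with another annotated gene on its strand. ATP5ME, at 445.9 and 426.2 TPM in controls and 485.1 and 507.7 TPM in knockouts, pointed up (0.19, adjusted p = 0.099). ATP5ME shares 44.0% of its coding bases with MYL5 on the opposite strand, and whether reads were counted by strand is not given in the sources used here. ATP5IF1, the inhibitor that binds the enzyme when the gradient fails, was at 128.4 and 128.9 TPM in controls but at 138.2 and 103.3 TPM in knockouts, on either side of the control level. ATP5MGL was listed at 0.247 and 0.119 TPM in the controls, about 2 and 1 reads, and at 0 in the knockouts.

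The knockout libraries differed from each other on chromosomes 1 and 7. On chromosome 1 all 8 tested subunit genes, among them ATP5PB, SDHB, SDHC and UQCRH, were lower in knockout 2 than in knockout 1, with a median log2 difference of -0.35. The median of all 1603 tested genes there was -0.17. On chromosome 7 all 5 (ATP5MF, CYCS, NDUFA4, NDUFA5 and NDUFB2) were higher in knockout 2, with a median of 0.23 beside 0.21 for all 779 genes. Between the controls the same subunit medians were 0.040 and -0.12. On the other chromosomes the medians of all tested genes lay between -0.076 and 0.076, and the median of the subunit genes could have the opposite sign, as on chromosome 11 (0.044 for all genes and -0.051 for 7 subunit genes). With chromosomes 1 and 7 left out, a choice made after the data were seen, 66 genes remained, of which 46 were negative and 2 fell, with a median of -0.090. Both knockouts lay below both controls in 37 of the 66, and in 39.0% of all tested genes on any chromosome. SDHC, on chromosome 1, was the called gene left out. Between knockout and control the median log2 fold change of all tested genes was -0.17 on chromosome 1 and -0.087 on chromosome 7. It was -0.058 over all chromosomes, and chromosomes 4 and 13 had -0.18 and -0.17. The part of chromosome 1 in the levels of SDHC and complex II was not tested.

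**Figure D4:**
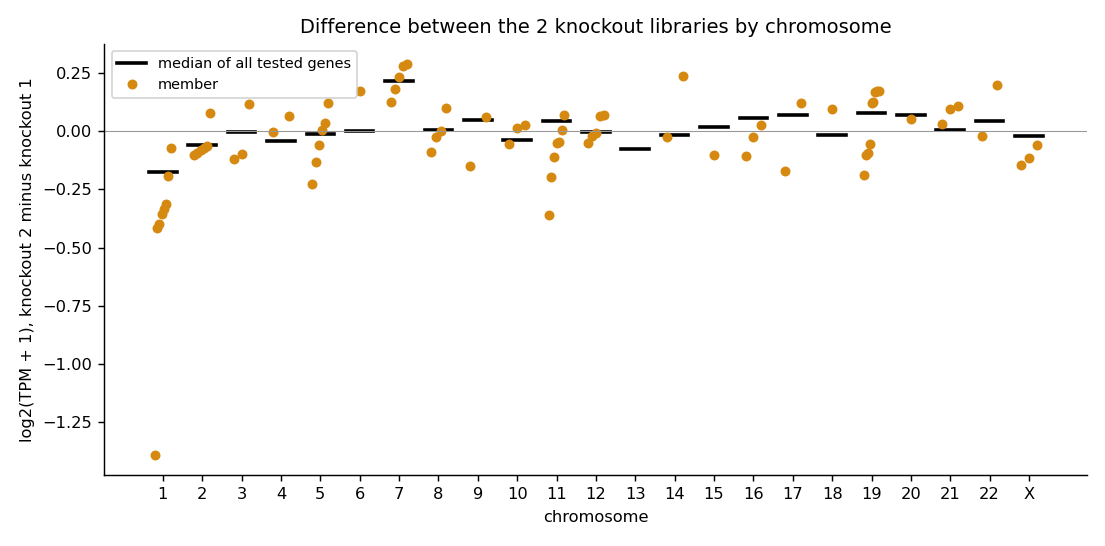
Difference in log2(TPM + 1) between the knockout libraries (knockout 2 minus knockout 1) for each tested subunit gene, by chromosome, with a bar at the median of all tested genes of that chromosome. The 8 genes on chromosome 1 all lie below 0 and the 5 on chromosome 7 all lie above 0.

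Fold change also varied with base composition. Across the 79 subunit genes Pearson's r between the GC content of the longest transcript and the log2 fold change was 0.29, and across 15640 tested genes it was 0.27. These correlations run across genes that share the same 4 libraries and are descriptions. Of 15 subunit genes with a GC content under 42%, 14 were negative, with a median of -0.26, and the median of all 3681 such genes was -0.31. Above 52% the order was different: 25 subunit genes had a median of -0.11 and all 6036 genes had 0.088. The 3 called genes have GC contents of 42.6% (SDHC), 39.8% (NDUFB5) and 43.6% (ATP5F1C). With the trend removed none of them was called: the log2 fold change was -0.32 for SDHC (adjusted p = 0.059), -0.43 for NDUFB5 (0.081) and -0.20 for ATP5F1C (0.11). Over all alternatives run their adjusted p ranged from 0.0038 to 0.18, 0.032 to 0.27 and 0.016 to 0.26. In that fit ATP5F1D, ATP5PF, CYC1 and UQCRC1 were lower and ATP5F1E was higher, and the part of base composition in the calls was not tested further.

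**Figure D5:**
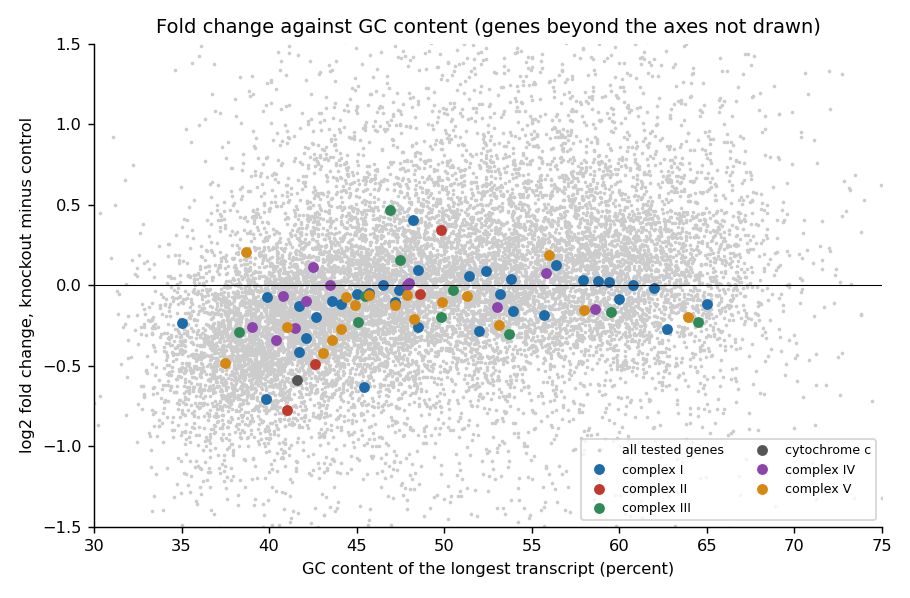
Log2 fold change (knockout minus control) against the GC content in percent of the longest transcript, for all tested genes in grey and subunit genes coloured by complex. The grey cloud and the subunit genes both lie lower at low GC content, where 14 of 15 subunit genes under 42% are negative.

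Other genes of the pathway were taken from 11 lists of assembly factors, regulators, carriers and partners. The messenger RNAs of the mitochondrial genome, which supply the remaining subunits, summed to 155200 and 172800 TPM in the controls and 148600 and 151000 TPM in the knockouts. Of 13 such transcripts 1 rose and 2 fell. MT-ND6, the complex I subunit on the other strand of that genome, rose from 2180 and 2256 TPM to 2712 and 2967 TPM (limma adjusted p = 0.037). MT-CO3 and MT-ATP6 fell, with log2 fold changes of -0.33 and -0.31 (adjusted p = 0.035 and 0.049). Levels of these transcripts in polyadenylated RNA also depend on their tails. Every called gene named from the lists lost its call in 4 or more alternatives, MT-ATP6 in 11, MT-CO3, TMEM70 and COQ7 in 10 each and SDHAF1 in 9, and none changed sign.

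Assembly factors had few called genes. Of 18 complex I factors 1 fell, TMEM70, which also serves complex V. Of 10 factors for complexes II and III 1 rose, SDHAF1, which helps to insert iron-sulfur clusters into SDHB. It went from 20.12 and 21.77 TPM to 28.35 and 28.15 TPM (log2 fold change 0.42, limma adjusted p = 0.046). Of 23 complex IV factors 3 fell and 0 rose. COX20, a chaperone of subunit COX2, went from 32.49 and 32.45 TPM to 22.84 and 20.22 TPM (-0.57, adjusted p = 0.030). COX11, which delivers copper, went from 42.33 and 31.20 TPM to 20.72 and 19.12 TPM (-0.84, adjusted p = 0.037), and COA3 fell by 0.36 on the log2 scale. Of 5 genes in the complex V list 2 fell, ATPAF1 (-0.61, adjusted p = 0.033), a chaperone of the beta subunit, and DMAC2 (-0.43, adjusted p = 0.033). DMAC2 was placed in that list but is known for assembly of the complex I membrane arm.

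NDUFAB1, the mitochondrial acyl carrier protein and itself a complex I subunit, lies outside the naming rule and rose. It stood at 142.8 and 133.3 TPM in the controls and 187.3 and 197.0 TPM in the knockouts (log2 fold change 0.48, SE 0.072, limma adjusted p = 0.023). Of the 6 tested genes of supercomplex and hypoxia-linked factors it was the one that rose, and HIGD2A was the one that fell (-0.39, adjusted p = 0.031).

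Among 18 regulators of mitochondrial biogenesis 1 fell and 0 rose. PPARGC1A, the coactivator PGC-1α that promotes transcription of respiratory chain genes, went from 6.932 and 5.975 TPM to 1.569 and 0.587 TPM (log2 fold change -1.88, SE 0.28, limma adjusted p = 0.023). Both knockouts were far below both controls. Its log2 fold change lay between -2.61 and -0.92 over all alternatives. Of the regulators whose motifs were searched, NRF1 stood at 14.91 and 16.50 TPM in the controls and 13.22 and 13.39 TPM in the knockouts (adjusted p = 0.20). The ETS factor gene GABPA was at 10.98 and 8.654 TPM and at 6.300 and 4.297 TPM (adjusted p = 0.068), and YY1 at 42.46 and 39.24 TPM and at 33.10 and 31.83 TPM (adjusted p = 0.066). The 3 were named after their values were seen, and in each both knockouts lie below both controls. Of the 18 regulators 10 (55.6%) had both knockouts below both controls, and 4 (22.2%) had both above: TFB1M, POLG, ESRRA and PPARGC1B. Over all tested genes these shares were 39.0% and 29.2%.

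Of 12 carriers and porins 4 fell and 0 rose. SLC25A3, the phosphate carrier that feeds ATP synthase, went from 179.7 and 188.8 TPM to 138.4 and 129.1 TPM (log2 fold change -0.46, limma adjusted p = 0.025). UCP2, an uncoupling protein family member, went from 207.0 and 197.1 TPM to 82.20 and 39.08 TPM (-1.81, adjusted p = 0.035), and SLC25A10, the dicarboxylate carrier, fell by 0.57 on the log2 scale. The fourth was SLC25A13, the aspartate-glutamate carrier citrin (-0.46). Of 15 citric acid cycle genes 1 fell, OGDH of the oxoglutarate dehydrogenase complex, from 82.98 and 78.26 TPM to 51.01 and 49.65 TPM (-0.67, adjusted p = 0.016). Of 20 tested import genes 3 fell: HSPE1, the matrix chaperonin cofactor (-0.88), TIMM13 (-0.54) and the receptor gene TOMM70 (-0.61). Of 13 genes for quinone and cytochrome c handling 2 fell, PDSS1 (-0.63) and COQ7 (-0.45), both of ubiquinone synthesis. The share that fell in these 11 lists ranged from 0 to 40.0%, beside the 8.67% of all tested genes. The highest share was of 5 tested genes, DMAC2 among them.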

How the data were processed

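TPM values made by the authors were deposited for 59409 gene symbols, with 1 column for each of the 4 libraries and a total of 1000000 in each. The submitters' processing notes list the build hg38 and, without a role for each, DESeq2 1.36.0, STAR 2.7.8a, cutadapt 1.18 and featureCounts 2.0.1. The annotation is, like gene lengths and strandedness, not given in the sources used here. Groups and replicate numbers came from the sample titles.

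The 15815 genes at or above 1 TPM in 2 or more libraries entered the fit. Values of log2(TPM + 1), which understate changes of low genes, were compared between groups in limma 3.58.1 (R 4.3.3). No covariate was used, and the variance prior followed mean expression. P-values were adjusted over all 15815 genes by Benjamini-Hochberg at 0.05. Medians, counts and sums describe the members without a test, and 1 member that enters them is not reported here by name.

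Positions, coding overlap and GC content came from GENCODE release 29 on GRCh38, where all 88 genes matched by name. Read numbers were estimated from steps in the TPM values: at under 200 reads, 53.7 to 55.7% of values lay within 0.02 of a whole read, where chance gives 4%, so depth is approximate.

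The members and lists were chosen with earlier results of these data known. The rule named called members, the 3 most abundant of each complex, isoforms, members at the filter and up to 3 called genes of each list. Other named genes, the 1.2-fold and 10 TPM limits and the GC classes were chosen after their values were seen. Alternatives covered the pseudocount, filter, scaling, GC content, replicate block, variance prior, threshold and each library left out.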

Additional observations from a re-analysis of the deposited data

How the results depend on the processing

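Counts of subunit genes called depended on the processing, and the cause was not tested. Against 0 higher and 3 lower in the report, the calls were 0 lower with no filter, with no trend in the variance prior and at an adjusted p of 0.01. They were 5 lower with a filter of 5 TPM and after rescaling without the mitochondrial genome, and 1 lower (SDHC) with median ratio scaling. At an adjusted p of 0.10 they were 4 higher and 15 lower. Of all tested genes 0%, 3.61% and 0.0632% were lower in the first 3 of these settings, 14.6%, 10.0% and 6.04% in the next 3, and 17.3% lower and 14.7% higher in the last, against 8.67% lower in the report. Beside 9.07% higher and 7.45% lower of all tested genes, quantile normalization gave 1 member higher and 3 lower. GC removal gave 1 higher and 4 lower, beside 9.05% and 7.43% of all tested genes, and 0 of these calls were among the 3 of the report. With single libraries left out they ranged from 0 to 2 higher and 0 to 22 lower, and the lone library of a group was then assumed to vary like the other group. A pseudocount of 0.1 or 5 TPM kept the same 3.

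Median ratio scaling moved the median log2 fold change from -0.11 to -0.049 for all members, to -0.020 for complex I, -0.12 for III, -0.022 for IV and -0.078 for V. It moves the median of all genes from -0.058 to -0.006. Rescaling without the mitochondrial genome gave -0.14, -0.11, -0.21, -0.11 and -0.17 for the same groups. GC removal, with or without the replicate block, gave -0.067 for all members, -0.19 for complex II, -0.097 for III, 0.025 for IV and -0.11 for V, and quantile normalization -0.20 for V. With single libraries left out the median ranged from -0.14 to -0.085 for all members, -0.11 to -0.065 for complex I, -0.34 to -0.18 for complex II, -0.19 to -0.16 for complex III, -0.90 to -0.28 for cytochrome c, -0.11 to -0.038 for complex IV and -0.19 to -0.13 for complex V.

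Summed levels differed by -1.56% (complex I), -14.2% (II), -5.26% (III), -0.77% (IV), -3.68% (V) and -3.12% (all) with median ratio scaling, and by -6.82% (IV), -9.55% (V) and -9.03% (all) without the mitochondrial genome. No called gene reversed its sign, but 31 members that were not called changed sign in at least 1 alternative, UQCRHL with the largest log2 fold change (0.47).

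Replicate numbers were not treated as pairs in the report. Deviations of control 1 and knockout 1 from their group means correlated with r = 0.0989 over 15815 genes. As only 2 pairs exist, this single value cannot show whether libraries of the same number share a culture or batch. With the replicate number as a block 0 members were higher and 3 lower (NDUFB5, NDUFC2 and SDHC), 2 of them shared with the report. Of all tested genes 9.0% were higher and 9.79% lower in that fit. With the block and GC removal together 1 member was higher and 0 lower, beside 7.01% and 4.48% of all tested genes.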

Other observations

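Processed pseudogene copies of the subunit genes, left out of the member list, were mostly listed at 0, which in this table need not mean absence. Of 104 such symbols 69 were listed at 0 in every library and 8 were tested. COX7CP1, a copy of the complex IV gene COX7C, was the one that passed the test: its control values were 2.57 and 2.98 TPM and its knockout values 1.12 and 1.00 TPM (log2 fold change -0.87, limma adjusted p = 0.040). The median over the 8 tested copies was 0.36. ATP5F1EP2, a copy of ATP5F1E, stood at 2.53 and 3.67 TPM in the controls and 5.53 and 8.61 TPM in the knockouts (adjusted p = 0.066), and COX5BP6 at 5.62 and 4.97 TPM and at 8.17 and 7.28 TPM (adjusted p = 0.083). Reads of such copies and of their parent genes can be misassigned between each other.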
